A study of Mus musculus with 9 samples.

Results

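The proteins that coat lipid droplets and make them grow were followed here through the liver mRNA of 10 genes. These were the perilipins *Plin2*, *Plin3*, *Plin4* and *Plin5*, the CIDE genes *Cidea*, *Cideb* and *Cidec*, and *Fitm2*, *Hsd17b13* and *Bscl2*. They were chosen by name as droplet proteins, with earlier results of these data known. All 10 were found among the 19329 gene symbols of the deposited tables. Livers came from 4 mice on a high-sucrose diet (HSD) for 3 weeks, which serves in this study as a mouse model of non-alcoholic fatty liver disease. The other 5 mice were kept on chow (Chow). All 9 animals were C57BL/6J, an inbred strain with no engineered allele, and were 11 weeks old at sampling, the diets having begun at 8 weeks. The sources used here give neither their sex nor the make-up of the sucrose diet, and the amount of fat in these livers was not analysed here. Each library came from a separate mouse, and livers are called HSD 1 to HSD 4 and Chow 1 to Chow 5 after their labels.

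A lipid droplet is a core of triglyceride and cholesteryl ester under a single layer of phospholipid, and proteins bind that layer. Droplets bud from the endoplasmic reticulum with the help of seipin and FIT proteins, perilipins then cover them and hold lipases off, and CIDE proteins move lipid from smaller droplets into larger ones. In fatty liver the hepatocyte fills with such droplets, and PLIN2 is a widely used protein marker of them. PLIN2 protein is also stabilized by the lipid it binds, so its mRNA is only one of the controls on its amount.

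None of the droplet coat and growth genes passed the test for a difference between HSD and Chow livers. Among the 9 members with enough counts to be tested, 0 passed an adjusted p under 0.05 by edgeR's quasi-likelihood test with Benjamini-Hochberg adjustment, where 6.67% of all 12091 genes tested passed (807 genes, 3.44% higher and 3.23% lower in HSD). At an unadjusted p under 0.05 the count was also 0 of 9 by edgeR, by DESeq2 and by limma voom, where 23.7% of all genes tested were under it by edgeR. The adjusted p of the members ran between 0.224 and 0.917. The TPM values of HSD and Chow livers overlapped in 9 of 9 members, and the diets did not overlap in 12.2% of all genes tested. With only 9 members, a count of 0 lies near the shares of 6.67% and 12.2%. The median log2 fold change was 0.07 over the 9 members and 0.00 over all genes tested, with 5 members above 0 and 4 below. For 8 of the 9 members the 95% interval of the fold change lay within 2-fold in either direction, and for 7 it lay within 1.5-fold. The tenth, *Cidea*, was at 0 in every HSD liver and in all Chow livers but Chow 5, which had 2 counts. If each count is a separate event, a count of 0 allows up to 3 counts for counting error alone. That is 0.121 to 0.214 CPM (counts scaled to the library total) in the HSD libraries. Nearly all whole counts were even, so the true bound may be higher.

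The libraries held 14040723 to 24825322 estimated counts in HSD livers and 12769668 to 25913869 in Chow livers. TPM, a share of the transcripts of a library in which counts are corrected for transcript length, is used below for levels. Fold changes come from counts scaled by edgeR's TMM method, which centres the typical gene on no change. In TPM the median gene was 0.14 higher in HSD than in Chow on the log2(TPM + 1) scale, so a ratio of mean TPM can differ from the fitted fold change of the same gene. All 8 hepatocyte markers were present, and their summed level was 85013 to 108114 TPM in HSD livers and 51198 to 104339 TPM in Chow livers. Chow 1 stood apart, with 72003 TPM in a list of 7 acute phase genes, against 3352 to 4053 TPM in HSD livers and 3409 to 6131 TPM in the other Chow livers, and 0 members were called with Chow 1 left out. Several members are also genes of fat cells. Of 8 adipocyte markers, *Lep* and *Retn* were at 0 in all 9 livers and *Adipoq*, *Cfd* and *Ucp1* had at most 2 counts, each in 1 liver, while *Plin1*, the adipocyte perilipin, had at most 4.06 counts. The list summed to 15.9 to 23.8 TPM in HSD livers and 12.9 to 23.5 TPM in Chow livers, nearly all of it from *Fabp4* and *Lipe*. In tissue RNA such as this, fewer cells of a type and less RNA per cell cannot be told apart.

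**Figure D1:**
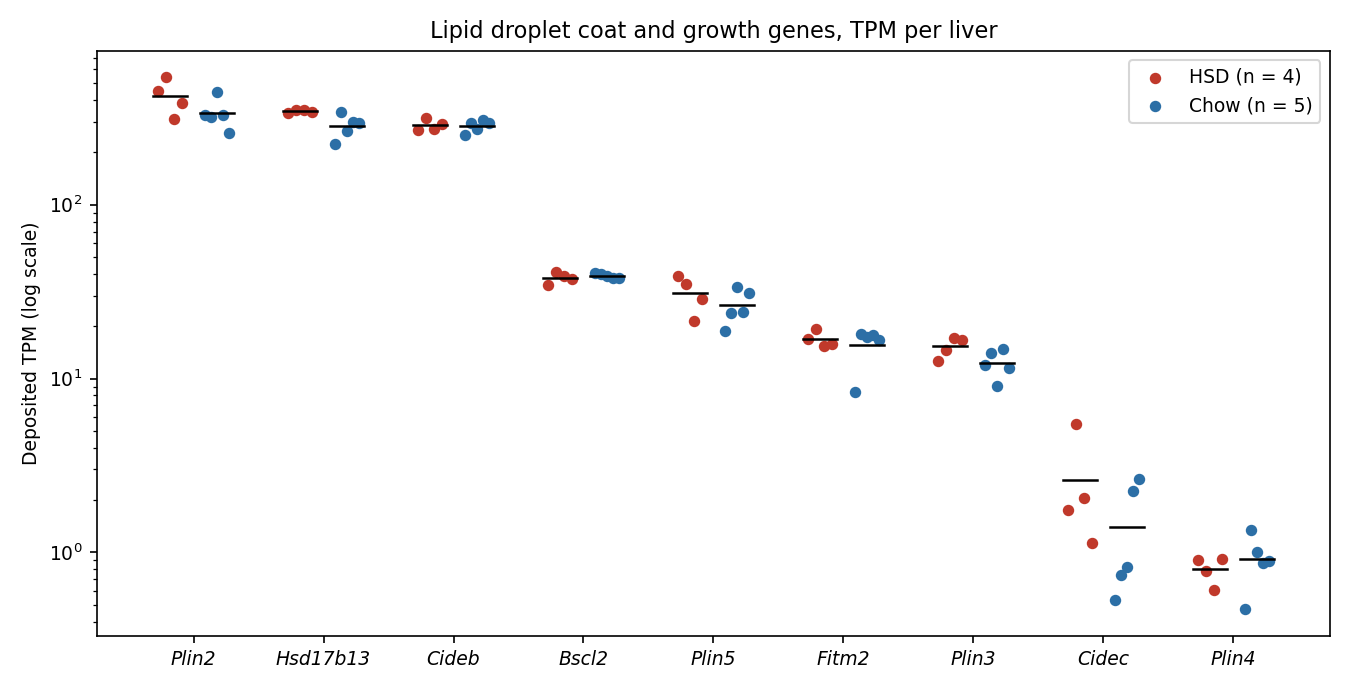
Deposited TPM (log scale) of the 9 members with values in every liver, with 1 point per liver and a line at each mean, for 4 HSD livers (red) and 5 Chow livers (blue). The diets overlap for every gene shown, and *Plin2*, *Hsd17b13* and *Cideb* stand above the other members.

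The members differed far more from each other than between diets. Averaged over the 9 livers, *Plin2* had 375 TPM, *Hsd17b13* 312 TPM and *Cideb* 286 TPM. These 3 genes could not be ranked with certainty, since *Plin2* was above *Hsd17b13* in 6 of 9 livers and *Hsd17b13* above *Cideb* in 5 of 9. A second tier followed with *Bscl2* at 38.5 TPM and *Plin5* at 28.4 TPM, the first being higher in 8 of 9 livers. *Fitm2* at 16.2 TPM and *Plin3* at 13.6 TPM came next and traded places, *Fitm2* being higher in 6 of 9 livers. *Cidec* at 1.94 TPM and *Plin4* at 0.866 TPM were the lowest members present in every liver. The liver thus expressed 1 dominant perilipin and 1 dominant CIDE gene, as the shares below show.

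*Plin2* encodes the main perilipin of the hepatocyte. Its level was 453, 540, 313 and 385 TPM in HSD 1 to HSD 4, against 328, 320, 447, 327 and 260 TPM in Chow 1 to Chow 5. The highest liver was an HSD liver, but HSD 3 lay below 4 of the Chow livers and Chow 3 lay above 2 of the HSD livers. The mean was 423 ± 96.9 TPM in HSD and 336 ± 68.0 TPM in Chow (SD, n = 4 and 5). The log2 fold change was 0.16 (SE 0.19, 95% interval -0.25 to 0.58, adjusted p = 0.654 by edgeR). Without HSD 2 that log2 fold change was 0.00. With the series of library numbers in the labels as a covariate it was 0.31 (adjusted p = 0.263 by edgeR), and within the first series alone it was also 0.31 (adjusted p = 0.537). *Plin2* made up 88.8 to 91.5% of the TPM of the 4 perilipins in HSD livers and 85.7 to 91.3% in Chow livers.

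*Plin5* encodes the perilipin of oxidative tissues, which places droplets beside mitochondria and binds the lipase ATGL and its activator ABHD5. HSD 1 to HSD 4 had 38.7, 35.0, 21.5 and 28.6 TPM, and Chow 1 to Chow 5 had 18.8, 23.9, 33.7, 24.2 and 31.1 TPM. Both diets therefore held livers at either end of the range. The log2 fold change was 0.07 (SE 0.18, 95% interval -0.32 to 0.47, adjusted p = 0.851 by edgeR), and it turned to -0.04 without HSD 1.

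*Plin3* encodes a perilipin that moves between cytosol and new droplets. Its TPM was 12.7, 14.6, 17.2 and 16.7 in HSD 1 to HSD 4, against 12.0, 14.1, 9.07, 14.8 and 11.4 in Chow 1 to Chow 5. HSD 3 and HSD 4 lay above all Chow livers, and the other HSD livers lay among them. The mean was 15.3 ± 2.07 TPM in HSD and 12.3 ± 2.26 TPM in Chow (SD, n = 4 and 5), and the log2 fold change was 0.16 (SE 0.13, adjusted p = 0.506 by edgeR). *Plin4*, a perilipin known from adipocytes and muscle, had 0.610 to 0.915 TPM in HSD livers and 0.472 to 1.35 TPM in Chow livers, with a log2 fold change of -0.33 (SE 0.24, adjusted p = 0.445 by edgeR). Without Chow 1, the lowest Chow liver, it was -0.47 (unadjusted p = 0.0443, adjusted p = 0.196 by edgeR).

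*Plin4*, *Plin5* and *Plin3* lie on the minus strand of mouse chromosome 17 (GRCm38, GENCODE), at chr17:56100591-56109803, chr17:56111601-56117596 and chr17:56277476-56292873. Only 1797 bases separate *Plin4* from *Plin5*, yet their levels differed widely, and 159879 bases separate *Plin5* from *Plin3*. *Plin2* lies apart from them at chr4:86648386-86670060, also on the minus strand. The 3 neighbours differed in their highest liver, since *Plin5* peaked in HSD 1, *Plin3* in HSD 3 and *Plin4* in Chow 2.

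*Plin2* and *Plin5* had the same 3 highest livers, HSD 1, HSD 2 and Chow 3. For *Plin2* the lowest of these 3 had 447 TPM and the highest of the other 6 had 385 TPM, and for *Plin5* these values were 33.7 and 31.1 TPM. This pattern was chosen after the values were seen, and it crosses the diets. Both genes are known targets of PPARα, the fatty acid-sensing nuclear receptor that drives fatty acid oxidation in liver. Among 17 other PPARα target genes, the same 3 livers were highest for 4 of 17, *Acot1*, *Cyp4a10* and *Cyp4a14* among them, while this held for 136 of the 12091 genes tested, or 1.12%. On TMM-scaled counts it held for 5 of the 17 and 1.06% of all genes tested.

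The widest separation among these 3 named targets was that of *Cyp4a14*, a fatty acid omega-hydroxylase. It had 53.1, 77.1, 5.37 and 5.02 TPM in HSD 1 to HSD 4, against 1.96, 1.68, 30.8, 3.55 and 1.78 TPM in Chow 1 to Chow 5. Its relative *Cyp4a10* had 93.8, 236, 37.6 and 35.2 TPM in HSD livers, against 19.3, 27.4, 187, 70.5 and 32.5 TPM in Chow livers. *Acot1*, an acyl-CoA thioesterase, had 33.6, 51.3, 9.60 and 15.9 TPM in HSD livers, against 4.09, 13.3, 22.0, 16.2 and 13.9 TPM in Chow livers. The separation of the 3 livers was therefore wide for *Cyp4a14* and narrower for *Acot1* and *Plin5*. With 3 livers set far apart from the others for *Cyp4a14*, no correlation is given.

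Other features moved with part of this pattern. HSD 1, HSD 2 and Chow 1 to Chow 4 carry library numbers of the first series in the labels, whereas HSD 3, HSD 4 and Chow 5 carry numbers of the second, which holds too few livers for values of its own. The clock gene *Arntl* had 4.57, 1.98, 2.23 and 2.38 TPM in HSD 1 to HSD 4, against 1.76, 0.795, 4.38, 0.653 and 0.821 TPM in Chow 1 to Chow 5, so it was highest in HSD 1 and Chow 3 but not in HSD 2. The clock output gene *Dbp* had 34.0, 86.2, 52.8 and 69.1 TPM in HSD livers, against 31.9, 111, 24.0, 124 and 109 TPM in Chow livers. The part of PPARα, sampling time or library series in the levels of *Plin2* and *Plin5* was not tested.

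**Figure D2:**
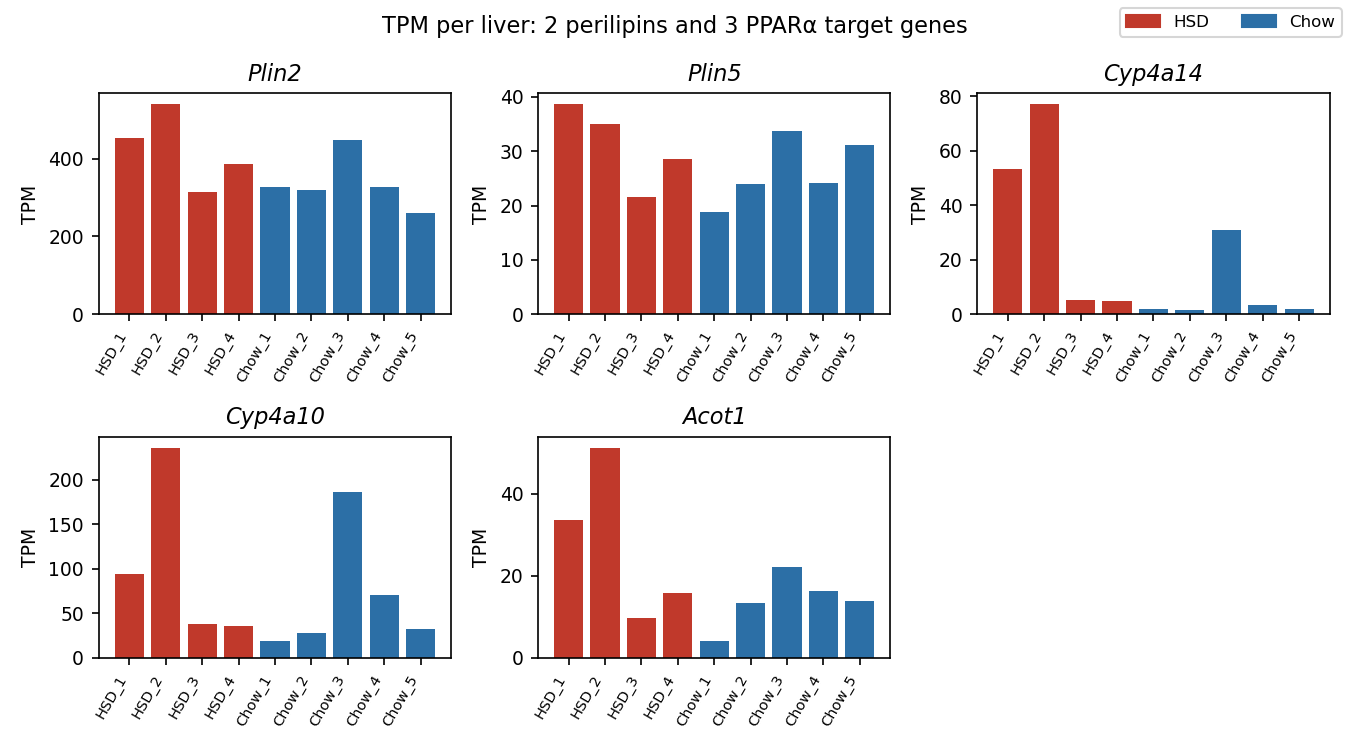
TPM per liver of *Plin2*, *Plin5* and 3 PPARα target genes with the same 3 highest livers, with 1 bar per liver for 4 HSD livers (red) and 5 Chow livers (blue) and every axis starting at 0. HSD 1, HSD 2 and Chow 3 are the highest livers in each panel, by a wide margin for *Cyp4a14* (30.8 TPM or more, against at most 5.37 TPM) and a narrow margin for *Plin5*.

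The bases upstream of *Plin2* and *Plin5* are shown because these genes shared their highest livers, and nuclear receptors such as PPARα bind repeats of AGGTCA. The sequences are RefSeq promoter windows of build GRCm38.p6, on the minus strand and ended before the outermost GENCODE exon of the gene, and capitals mark AGGTCA or its reverse complement TGACCT.
*Plin2* chr4:86670061-86670309: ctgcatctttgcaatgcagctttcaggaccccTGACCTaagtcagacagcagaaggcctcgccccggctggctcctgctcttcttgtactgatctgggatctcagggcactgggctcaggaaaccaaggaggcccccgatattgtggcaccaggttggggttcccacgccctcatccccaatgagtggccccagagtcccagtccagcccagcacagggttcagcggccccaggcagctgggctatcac
*Plin5* chr17:56117597-56117798: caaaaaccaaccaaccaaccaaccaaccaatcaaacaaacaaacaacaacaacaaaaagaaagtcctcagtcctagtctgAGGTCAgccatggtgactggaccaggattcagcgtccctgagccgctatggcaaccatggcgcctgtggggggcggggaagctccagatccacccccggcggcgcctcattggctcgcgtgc
Counted back from -1 at the last base printed, the motif begins at base -217 for *Plin2* and at base -122 for *Plin5*. Over both strands, AGGTCA was in 4 of 13 upstream windows of the members (those of *Plin2*, *Plin5*, *Hsd17b13* and *Bscl2*) and in 14.0% of 32851 windows of up to 250 bases over all genes. The repeat AGGTCANAGGTCA, an exact form of the site that PPARs prefer, was in 0 member windows and in 0.0335% of all windows. CACGTG was in 0 member windows (6.02% of all) and TGACGT also in 0 (6.47% of all). *Hsd17b13* and *Bscl2*, which also held AGGTCA, did not share the highest livers of *Plin2* and *Plin5*. Such matches describe the letters in these windows and not binding, and the part of PPARα was not tested. The RefSeq table held windows for 9 of the 10 members.

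Among the CIDE genes, *Cideb* dominated. Its protein helps hepatocytes load lipid onto very-low-density lipoprotein, and it is the CIDE gene of normal liver. The level was 268, 316, 271 and 293 TPM in HSD 1 to HSD 4, against 252, 295, 273, 308 and 295 TPM in Chow 1 to Chow 5. The diets overlapped almost fully, and the mean was 287 ± 22.1 TPM in HSD and 285 ± 22.0 TPM in Chow (SD, n = 4 and 5). The log2 fold change on TMM-scaled counts was -0.16 (SE 0.09, 95% interval -0.34 to 0.03, adjusted p = 0.299 by edgeR), whereas on the TPM scale it was 0.01. Without HSD 2 it was -0.22 on TMM-scaled counts (unadjusted p = 0.0315, adjusted p = 0.186 by edgeR). *Cideb* took 98.3 to 99.6% of the TPM of the 3 CIDE genes in HSD livers and 99.0 to 99.8% in Chow livers. This gene lies at chr14:55754050-55758458 on the minus strand and overlaps *Nop9* on the other strand over 1136 exonic bases, and 72.8% of the 31-base runs in its transcripts also occur in other genes. The sources used here do not say whether the counting used strand, so the split between the 2 genes is uncertain. *Nop9* itself was listed at 6.56 to 11.3 TPM in HSD livers and 6.02 to 13.6 TPM in Chow livers.

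*Cidec* (also called Fsp27) encodes the CIDE protein that enlarges droplets in white fat and is known to be induced in steatotic mouse liver. It had 1.75, 5.48, 2.06 and 1.14 TPM in HSD 1 to HSD 4, against 0.533, 0.740, 0.826, 2.25 and 2.65 TPM in Chow 1 to Chow 5. These values rest on few reads, namely 26, 96, 24 and 26 estimated counts in HSD livers and 12, 16, 18, 52 and 28 in Chow livers. HSD 2 was the highest liver, and Chow 4 and Chow 5 lay above the other HSD livers. The log2 fold change was 0.68 (SE 0.49, adjusted p = 0.438 by edgeR), and the fold change had a 95% interval of 0.767 to 3.34, so a 3-fold rise and a small fall both lie within it. Without HSD 2 the log2 fold change was -0.06 (adjusted p = 0.953 by edgeR). Within the first library series alone it was 1.35 (unadjusted p = 0.0385, adjusted p = 0.332 by edgeR).

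The tables also carry a trace of which *Cidec* transcripts were read. A count divided by its TPM gives the effective transcript length that kallisto used for the gene, once scaled on genes with a single transcript, so a shift in this length reflects a shift among transcripts. An effective length is shorter than the transcript by about the length of a sequenced fragment. For *Cidec* it was 905, 1071, 1031 and 1153 bases in HSD 1 to HSD 4, against 1465, 1458, 1179, 1092 and 960 bases in Chow 1 to Chow 5. Chow 1 and Chow 2 thus lay near the effective length of the long transcripts, while the 4 HSD livers and the other Chow livers had more weight on short ones. Expressed against its own minimum, the range over 9 livers was 62.0% for *Cidec* and 0.272 to 4.14% for the other 8 members. With 12 to 96 counts a liver the mix is poorly fixed, and the diets overlapped, so this difference is given as a description.

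**Figure D3:**
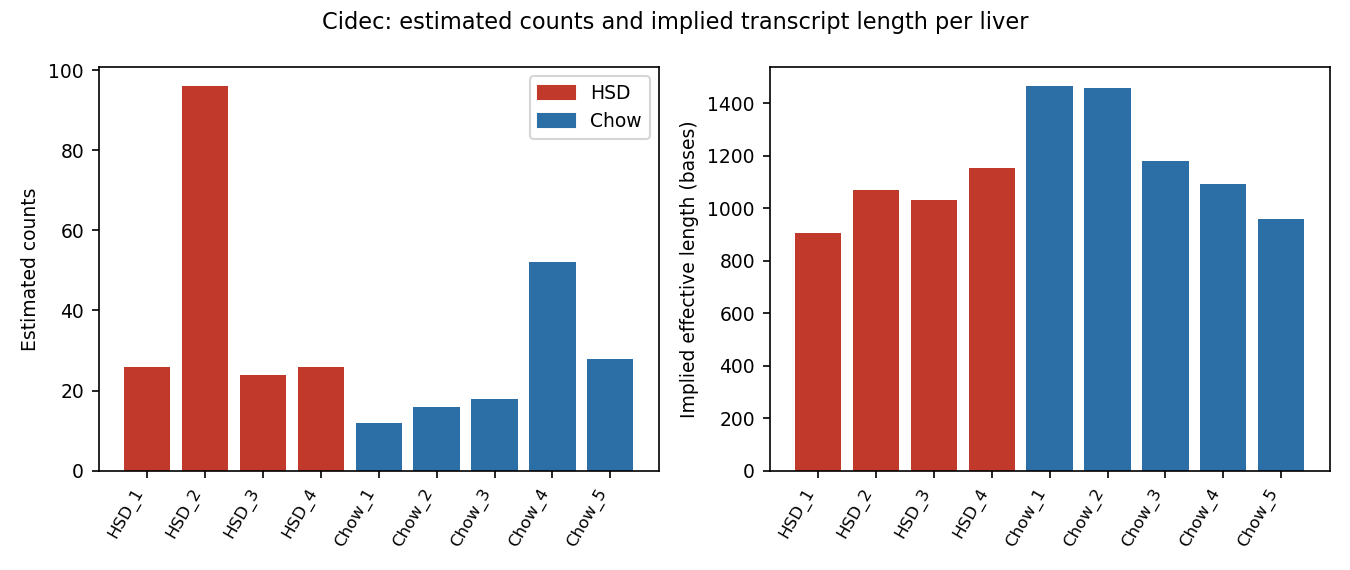
Estimated counts of *Cidec* per liver (left) and its implied effective transcript length in bases (right), with 1 bar per liver for 4 HSD livers (red) and 5 Chow livers (blue). HSD 2 has 96 counts against 12 to 52 in the other livers, and the length is greatest in Chow 1 and Chow 2.

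Among the annotated starts of *Cidec* (chr6:113424634-113435760, minus strand), an outer and an inner one lie 996 bases apart. The long transcripts of 1720 and 1703 bases begin at the outer start or a few bases after it. The short one of 785 bases begins at the inner start, and that of 376 bases begins further inside. The 250 bases before the outer and inner starts are printed because the shift in length lies between transcripts that begin at or after them. They are again from RefSeq on GRCm38.p6, with no motif marked.
*Cidec* outer start chr6:113435761-113436010: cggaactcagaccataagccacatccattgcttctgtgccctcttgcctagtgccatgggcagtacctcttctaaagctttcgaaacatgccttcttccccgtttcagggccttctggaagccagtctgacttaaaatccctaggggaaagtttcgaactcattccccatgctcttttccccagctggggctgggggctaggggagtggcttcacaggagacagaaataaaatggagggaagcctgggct
*Cidec* inner start chr6:113434765-113435014: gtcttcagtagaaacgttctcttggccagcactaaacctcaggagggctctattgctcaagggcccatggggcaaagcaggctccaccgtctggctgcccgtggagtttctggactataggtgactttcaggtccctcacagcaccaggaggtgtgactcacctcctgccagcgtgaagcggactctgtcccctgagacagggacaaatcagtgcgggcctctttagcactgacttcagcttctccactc
Neither window held any of the motifs searched above on either strand. No 31-base run of *Cidec* recurs in another gene.

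*Cidea* (chromosome 18), the CIDE gene of brown fat, was not tested. Its single nonzero value was 0.198 TPM in Chow 5, which is below the floor of 3 counts.

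The genes of droplet birth, *Fitm2* and *Bscl2*, overlapped between diets. *Fitm2* (chr2:163466379-163472629, minus strand) encodes an enzyme of the endoplasmic reticulum that is needed for droplets to bud. It had 17.0, 19.2, 15.5 and 15.8 TPM in HSD 1 to HSD 4, against 8.38, 18.1, 17.4, 17.7 and 16.6 TPM in Chow 1 to Chow 5. Apart from Chow 1, the livers of both diets lay within a narrow band. The mean was 16.9 ± 1.71 TPM in HSD and 15.6 ± 4.09 TPM in Chow (SD, n = 4 and 5), and the log2 fold change was -0.04 (SE 0.16, 95% interval -0.39 to 0.31, adjusted p = 0.917 by edgeR). Without Chow 1 it was -0.17 (adjusted p = 0.284 by edgeR).

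*Bscl2* (chr19:8837467-8848683, plus strand) encodes seipin, the ring-shaped protein that sits where droplets leave the endoplasmic reticulum. Its TPM was 34.7, 40.8, 38.9 and 37.2 in HSD 1 to HSD 4, against 40.6, 39.7, 38.9, 37.9 and 38.1 in Chow 1 to Chow 5. The whole range was small, and HSD livers held both its ends. It had the smallest unadjusted p of the members, 0.0558, with a log2 fold change of -0.21 (SE 0.10, 95% interval -0.42 to 0.01, adjusted p = 0.224 by edgeR), and on the TPM scale the log2 fold change was -0.04. The unadjusted p by edgeR was 0.0362 without HSD 2, 0.0314 without Chow 4 and 0.0475 without Chow 5. In these fits the adjusted p was 0.171 to 0.220. Some of its exons overlap other genes, and 12.6% of its 31-base runs recur elsewhere, mostly with *Gng3* on the other strand.

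*Hsd17b13* (chr5:103955440-103977410, minus strand) encodes a droplet enzyme of the liver with retinol dehydrogenase activity, studied in human fatty liver disease. It had 337, 352, 351 and 340 TPM in HSD 1 to HSD 4, against 224, 342, 266, 301 and 294 TPM in Chow 1 to Chow 5. The HSD livers were close to one another and all 4 lay above the Chow median, but Chow 2 reached into their range. The coefficient of variation was 2.27% in HSD and 15.3% in Chow, a difference in spread that was not tested. The mean was 345 ± 7.84 TPM in HSD and 285 ± 43.7 TPM in Chow (SD, n = 4 and 5), with a log2 fold change of 0.11 on TMM-scaled counts (SE 0.10, 95% interval -0.10 to 0.32, adjusted p = 0.530 by edgeR). On the log2(TPM + 1) scale the difference was 0.29 (unadjusted p = 0.0294, adjusted p = 0.151 by limma), where the median gene was itself 0.14 higher.

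Beside these members, 45 other droplet genes were followed in 3 lists, and 44 had enough counts to be tested. The lists were chosen with earlier results of these data known, so counts over them are a description. Among 10 genes of droplet lipolysis, 3 rose and 2 fell, where 6.67% of all genes tested passed in either direction. At an unadjusted p under 0.05 by edgeR there were 8 of 10 (23.7% of all genes tested), and the median log2 fold change was 0.30. *Pnpla3*, a droplet protein that binds the lipase activator ABHD5, rose in HSD livers to 52.8 ± 29.5 TPM, against 4.72 ± 4.04 TPM in Chow livers (SD, n = 4 and 5; log2 fold change 3.51, SE 0.51, adjusted p = 0.00297 by edgeR). *Abhd5*, the activator of ATGL itself, rose to 46.6 ± 13.1 TPM in HSD livers, against 22.7 ± 1.78 TPM in Chow livers (log2 fold change 0.88, SE 0.15, adjusted p = 0.00657 by edgeR). The lysosomal lipase gene *Lipa* rose as well, by a log2 fold change of 0.63 (adjusted p = 0.00657 by edgeR). *Lipe*, which encodes hormone-sensitive lipase, fell to 8.31 ± 1.87 TPM in HSD livers, against 11.0 ± 1.51 TPM in Chow livers (log2 fold change -0.64, SE 0.11, adjusted p = 0.00657 by edgeR). *Ces1g*, a liver carboxylesterase that hydrolyses lipid esters, fell by 1.04 on the log2 scale (adjusted p = 0.0180 by edgeR), a call lost without HSD 1 or HSD 4 (adjusted p up to 0.0706). *Abhd5* has 16.6% and *Lipe* 12.9% of 31-base runs in common with other genes, mostly on the other strand, so part of their counts is uncertain in the same way.

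Of 19 other droplet surface genes tested, 1 rose and 0 fell, near the 6.67% called over all genes tested, with 8 at an unadjusted p under 0.05 by edgeR (23.7% of all genes tested). The gene was *Vps13c*, which encodes a lipid transfer protein at contacts between droplets and the endoplasmic reticulum, at 10.5 ± 2.21 TPM in HSD livers and 7.28 ± 0.521 TPM in Chow livers (SD, n = 4 and 5; log2 fold change 0.59, SE 0.13, adjusted p = 0.0234 by edgeR). The call was lost without HSD 1 (adjusted p = 0.0815) or HSD 4 (adjusted p = 0.0792), and on the log2(TPM + 1) scale (adjusted p = 0.0837 by limma). The median log2 fold change of this list was 0.06. Of 15 other genes of triglyceride synthesis and droplet formation, 0 rose and 1 fell, again near the 6.67% over all genes tested, with 5 at an unadjusted p under 0.05 by edgeR (23.7% of all genes tested) and a median log2 fold change of 0.02. That gene was *Fitm1*, the relative of *Fitm2*.

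*Fitm1* is known as the FIT gene of muscle, and it was read here in liver at levels near those of *Fitm2*. It had 7.95, 13.3, 10.5 and 10.6 TPM in HSD 1 to HSD 4, against 12.8, 16.3, 19.1, 14.0 and 17.3 TPM in Chow 1 to Chow 5. Only HSD 2 reached into the Chow range. It fell by 0.76 on the log2 scale (SE 0.17, adjusted p = 0.0260 by edgeR), and the call was lost without HSD 1, HSD 3, HSD 4, Chow 3 or Chow 5 (adjusted p up to 0.0782). On the log2(TPM + 1) scale 0 of the 3 other droplet genes called lower passed the test, with an adjusted p of 0.0600 for *Fitm1* by limma. With the replicate number as a block the adjusted p of *Fitm1* was 0.0553 by edgeR. *Fitm2* accordingly took a larger share of the TPM of both FIT genes, 59.1 to 68.1% in HSD livers and 39.6 to 55.9% in Chow livers, and these ranges did not overlap. The difference in share was not tested, and no like value over other gene pairs was computed. The lowest Chow share was that of Chow 1, the Chow liver with the least *Fitm2*. Of 6 muscle markers, 3 were at 0 in all 9 livers, and their sum was 0 to 0.102 TPM in HSD livers and 0 to 0.194 TPM in Chow livers.

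**Figure D4:**
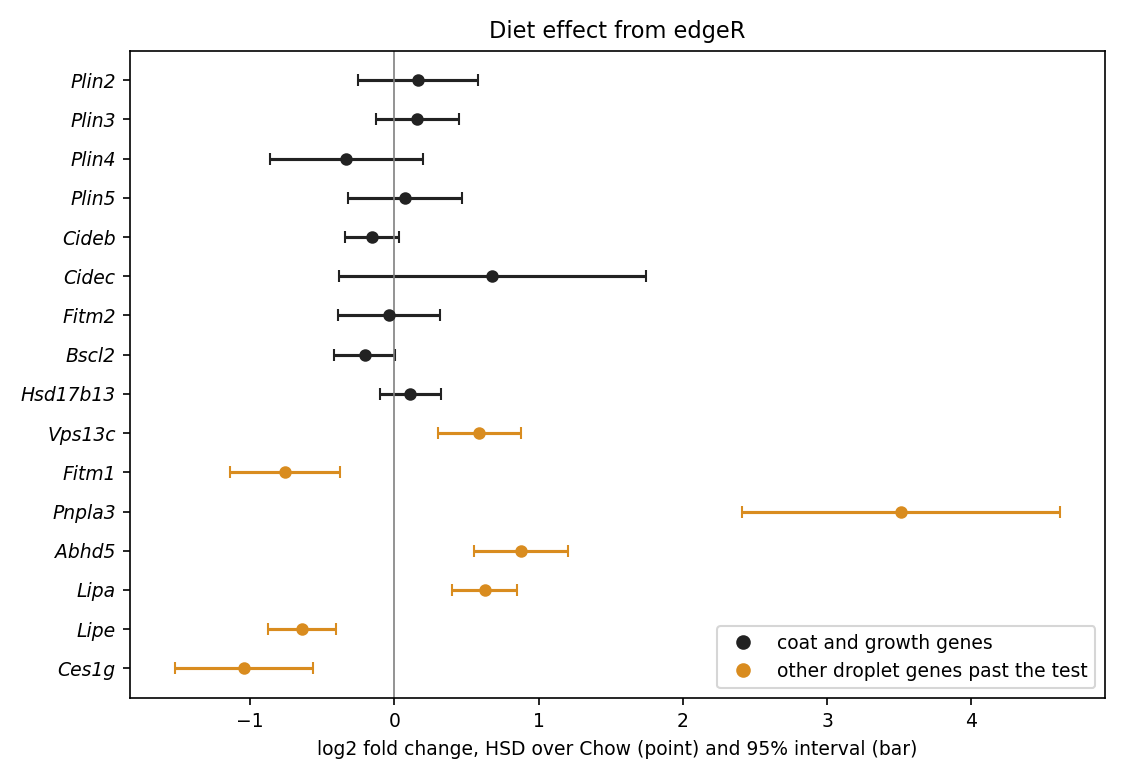
log2 fold change of HSD over Chow with its 95% interval from edgeR, for 9 coat and growth genes (black) and the 7 other droplet genes that passed the test (orange). Every black interval holds 0, that of *Cidec* being the widest, while *Pnpla3* has the largest value at 3.51.

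Of 11 regulators known for these genes, 1 rose and 1 fell, where 6.67% of all genes tested passed in either direction. Their median log2 fold change was 0.07. *Ppargc1a*, a coactivator of PPARα, rose by a log2 fold change of 0.93 (SE 0.17, adjusted p = 0.00955 by edgeR), and *Creb3l3*, a liver transcription factor of lipid genes, fell by 0.58 (adjusted p = 0.0314 by edgeR), a call lost without HSD 1, HSD 3, HSD 4, Chow 3 or Chow 5 (adjusted p up to 0.0926). *Ppara* had a log2 fold change of 0.26 (adjusted p = 0.329 by edgeR). *Pparg*, which drives *Cidec* and *Plin4* in fat, had one of -0.10 (adjusted p = 0.855 by edgeR).

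Among the 17 PPARα target genes 2 rose and 1 fell, where 6.67% of all genes tested passed in either direction. Their median log2 fold change was 0.09. *Fgf21*, a liver hormone, rose by a log2 fold change of 2.99 (SE 0.40, adjusted p = 0.00199 by edgeR) and *Pdk4*, which restrains pyruvate oxidation, by 1.82 (SE 0.23, adjusted p = 0.00167 by edgeR). Of 8 PPARγ target genes 5 were tested and 1 rose, where 3.44% of all genes tested rose. That gene was *Fabp5*, a fatty acid binding protein, with a log2 fold change of 1.60 (SE 0.31, adjusted p = 0.0113 by edgeR). *Plin2* and *Plin5*, with log2 fold changes of 0.16 and 0.07, thus stood among the PPARα targets that did not pass the test.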

How the data were processed

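The authors prepared poly-A libraries and quantified them with kallisto on GRCm38 (submitters' processing notes, no version). Estimated counts per gene symbol were deposited unscaled. The TPM values deposited beside them were scaled per library by the authors, and their columns sum to 923061 to 945110. The sources used here do not say how transcripts were summed to symbols. Of the count values, 73.7% were whole within 0.01 and 99.0% of these were even, so halved counts were tried. No libraries were repeats, and 0 columns were left unmapped.

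Diets were compared on rounded counts with the quasi-likelihood test of edgeR 4.0.16 (R 4.3.3) after TMM scaling and filterByExpr with a minimum count of 10 and total of 15 (diet as the factor, 7 residual degrees of freedom, Benjamini-Hochberg over the whole table, threshold 0.05). The scripts were tested on simulated data. Samples were grouped by their labels. The members and lists were chosen with earlier results of these data known. Named genes were all members, and in each list the called genes with the largest changes, at most 4; *Lipa*, *Ppara*, *Pparg*, *Nop9*, *Cyp4a14*, *Cyp4a10*, *Acot1*, *Arntl* and *Dbp* were named after their values were seen. Genes of like pattern were to be named for members past the test, and there was none. Some genes of the lists are not reported here. Alternatives were DESeq2 1.42.0, limma 3.58.1 (voom, log2(TPM + 1), log2(TPM + 0.1), with a mean TPM of at least 1 or all genes), RLE factors, library totals, no filter, halved counts, the replicate number as a block, the library series, an adjusted p under 0.01 and each liver left out. Implied lengths were scaled on 556 to 683 genes with 1 transcript each per library, within 2%. Shared sequences were 31-base runs in GENCODE transcripts. Sequences and promoter windows are from RefSeq.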

Additional observations from a re-analysis of the deposited data

Results flagged for a closer look

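*Fitm2* was low in a single liver of its group. Chow 1 had 8.38 TPM, against 16.6 to 18.1 TPM in the other 4 Chow livers, and the gap to its nearest neighbour was 0.848 of the range of the group. On TMM-scaled counts it had 31.04 CPM, against 52.4 to 58.3 CPM. That gap was 0.786 of the range, which is also above the critical value for a group of this size. Of 42 groups of livers examined in this way in TPM 1 stood out, or 2.38%, where chance gives about 1 in 20. Chow 1 was also the lowest Chow liver in 6 of the 9 members in TPM and in 5 of the 9 on TMM-scaled counts. It was the liver with 72003 TPM of acute phase genes, which lowers the TPM share left for other genes. The part of that response in the level of *Fitm2* was not tested.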

How the results depend on the processing

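The number of members called was 0 in each direction under all 22 alternatives. At an unadjusted p under 0.05 there were at most 2, *Cideb* and *Bscl2* without HSD 2 by edgeR. Of 187 fits of a member under an alternative, 171 kept direction and side of the threshold, 16 turned direction and 0 passed the threshold. *Plin2*, *Plin4*, *Hsd17b13* and *Bscl2* kept their direction throughout. Turned log2 fold changes were, for *Plin3*, -0.028 in the first library series alone; for *Cideb*, 0.012 on log2(TPM + 1), log2(TPM + 0.1) and TPM of all genes; and, for *Fitm2*, 0.024 with library totals, 0.14 on log2(TPM + 1), 0.16 on log2(TPM + 0.1), 0.14 on TPM of all genes and 0.087 in the first series alone. With 1 liver left out, *Plin5* ran from -0.041 (without HSD 1) to 0.21 and was -0.0042 without HSD 2, *Cidec* from -0.062 (without HSD 2) to 0.92, and *Fitm2* from -0.17 to 0.019 (0.01 without HSD 3, 0.02 without Chow 2 or Chow 3).

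Other droplet genes called higher (4) were 7 on log2(TPM + 1) and log2(TPM + 0.1), *Vps13c* not among them, 0 in the first series alone and 3 to 8 with 1 liver left out (8 without Chow 1). Those called lower (3) were 5 by DESeq2, 0 on each TPM scale and in the first series, 1 at an adjusted p under 0.01, and 1 to 5 with 1 liver left out (1 without HSD 1 or HSD 4, 5 without Chow 1). Regulators and PPAR targets called higher (4) were 1 in the first series and 4 to 6 with 1 liver left out. Those called lower (2) were 1 with library totals, 0 on each TPM scale, with the block, with the series covariate, in the first series and at an adjusted p under 0.01, and 0 to 3 with 1 liver left out (0 without HSD 1, HSD 3, HSD 4 or Chow 3, 1 without Chow 2, Chow 4 or Chow 5). In the first series alone, of the named genes that passed the test *Fgf21* alone still passed. The causes were not tested. Over all genes, 416 were higher and 391 lower, against 569 and 254 with library totals, 475 and 101 on log2(TPM + 1), 645 and 685 by DESeq2, and 15 and 19 in the first series alone.

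No sign of pairing by replicate number was seen. The correlation of deviations between same-numbered livers was -0.061 to 0.066 over 4 pairs, too few to exclude pairing. With the replicate number as a block, 0 members were called, the log2 fold change of *Fitm2* was 0.013 and that of *Plin2* 0.06, *Fitm1* lost its call (adjusted p = 0.0553 by edgeR), and 220 genes were higher and 205 lower over all genes.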
